A study of Bos taurus with 25 samples.

Results

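The classical antiviral interferon-stimulated genes described here are ISG15, HERC6, USP18, MX1, MX2, RSAD2, OAS2, IFI44, IFIH1 and IFIT2, in the liver and the mammary gland of lactating dairy cows that received vitamin B9, vitamin B12, both or neither. They were chosen by name, as every non-control probe of the array whose transcript identifier maps to one of these 10 symbols. On the array, 7 of the 10 genes were found, with 13 of the 43653 probes. HERC6 and MX1 had 3 probes each, ISG15 and RSAD2 had 2 each, and USP18, MX2 and OAS2 had 1 each. No probe was matched by name to IFI44, IFIH1 or IFIT2, and no value is given for them. Each gene was read on its brightest probe, which was the same one in both tissues.

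Interferons are secreted proteins that cells release when they sense viral nucleic acid. They bind receptors on the same and neighbouring cells, and the receptor kinases activate STAT and IRF transcription factors, which switch on a common set of antiviral genes. Liver and mammary tissue usually express these genes at a basal level, and they increase together when interferon is present. The products of the genes described here fall into 3 kinds. The first are the ubiquitin-like modifier ISG15, its protease USP18 and the HERC-family E3 ligase HERC6. The second are effectors that block viral replication (MX1, MX2, RSAD2, OAS2 and IFIT2). The third are IFIH1 and IFI44, a sensor of double-stranded RNA and a cytoplasmic interferon-induced protein.

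Each array held the RNA of 1 tissue of 1 multiparous Holstein cow, so replicates are animals, and the number of animals sets the precision. The biopsies were taken 64 ± 3 days after calving, and all cows had been injected in the muscle every week with 5 mL. Control cows received saline, the B9 group 320 mg of folic acid, the B12 group 10 mg of cyanocobalamin, and the B9 + B12 group both doses. The liver groups held 3 control, 3 B9, 4 B12 and 2 B9 + B12 cows, and the mammary groups 3, 3, 4 and 3, over 13 cows in all, of which 12 gave both tissues.

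Of all probes, 71.2% to 84.2% were well above background on a liver array and 64.4% to 76.5% on a mammary array. The liver arrays of cow 57 (B9) and cow 32 (B9 + B12) stood apart, with median correlations to the other liver arrays of 0.972 and 0.973 against at least 0.989 for the remaining ones. The liver arrays of cows 43 (control), 37 (B12) and 32 (B9 + B12) shared 1 slide, which was scanned on another day than the rest. Their median signal over background was 2.30 to 3.58, against 5.33 to 10.5 on the other liver arrays. The tissue labels matched their markers: the summed level of 6 hepatocyte genes was 19.93 to 20.17 (log2, scale common to both tissues) in the liver and 12.35 to 15.14 in the gland, and that of 7 mammary epithelial genes was 13.81 to 15.54 in the liver and 20.60 to 20.79 in the gland.

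In the liver of cows receiving B12, all 7 measured genes had a higher mean than in control cows (49.7% of all genes did), by log2 fold changes of 0.04 to 2.47 with a median of 1.35, against a median of -0.0005 over all genes. Of the 7, the 5 genes ISG15, HERC6, USP18, MX1 and RSAD2 had means 0.99 or more above control, while MX2 and OAS2 differed from control by less than 0.1. None of the 7 passed the threshold of an adjusted p of at most 0.05 with at least a 2-fold change in limma, and 0.00359% of all genes did. At an unadjusted p under 0.05, 3 of the 7 genes were higher, against 1.12% of all genes. A change of 2-fold or more upward was seen in 4 of the 7, against 0.169% of all genes. Values are log2 intensities after background correction and quantile normalisation within the tissue.

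**Figure D1:**
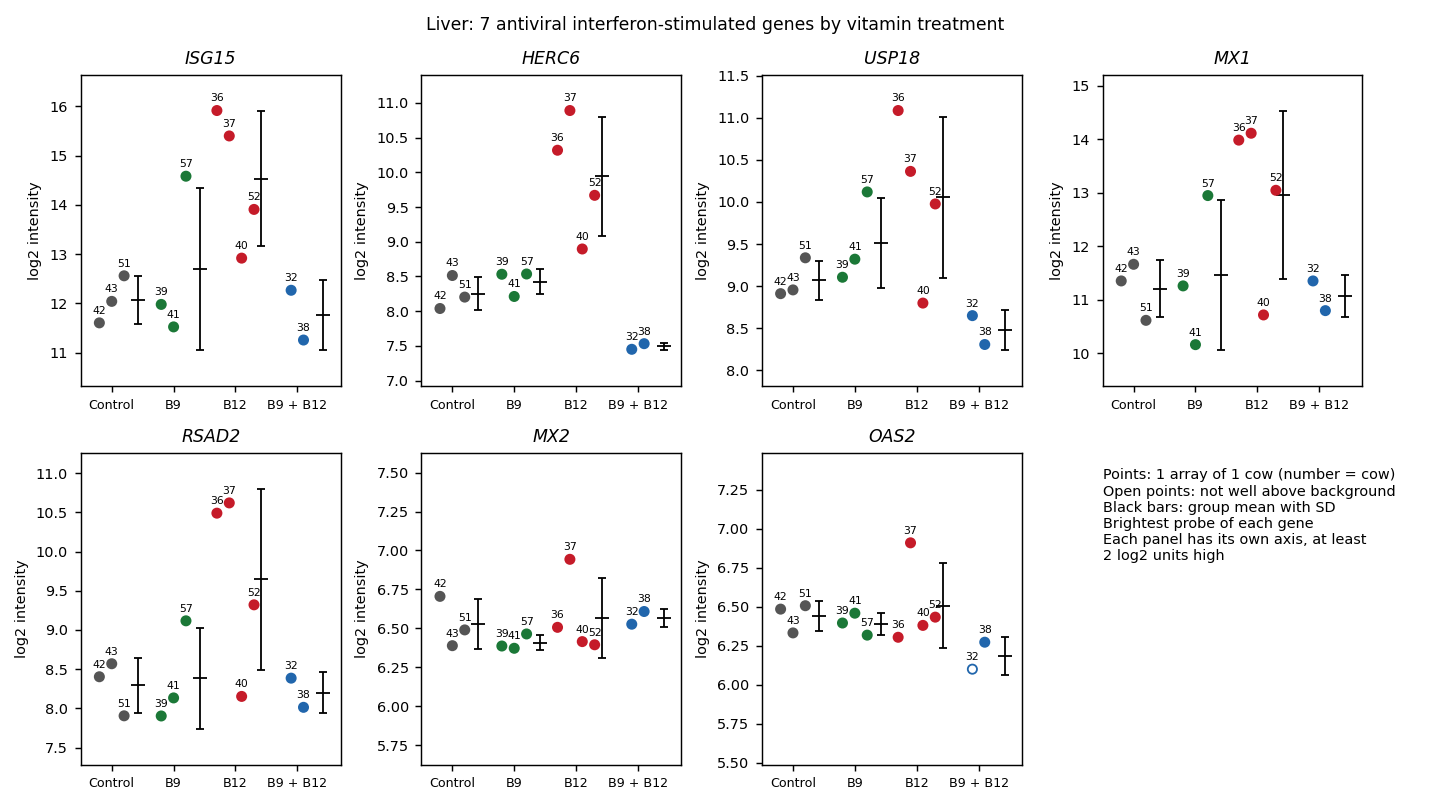
Liver log2 intensity (vertical axes) of the 7 measured genes in each treatment group (horizontal axes), where each point is the array of 1 cow, the number beside it is the cow, open points are not well above background, and black bars are the group mean with its SD. B12 cows 36, 37 and 52 are above the 3 control cows for ISG15, HERC6, USP18, MX1 and RSAD2, cow 40 is nearer to them, and MX2 and OAS2 vary by less than 1 unit.

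ISG15, the ubiquitin-like protein that is conjugated to other proteins after interferon exposure, was measured by probe A_73_P122741 at 11.60, 12.04 and 12.56 in control cows 42, 43 and 51. In B12 cows 36, 37, 40 and 52 it was 15.92, 15.40, 12.92 and 13.91. All 4 B12 cows were above all 3 control cows, and cow 40 was the nearest to them. The means were 12.07 ± 0.48 (SD, n = 3) and 14.54 ± 1.37 (SD, n = 4), a 5.53-fold difference (log2 fold change 2.47, standard error 0.85, 95% interval 0.57 to 4.37, adjusted p = 1 from limma). The other ISG15 probe gave a log2 fold change of 2.46.

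HERC6, a HERC-family E3 ligase, was 8.04, 8.51 and 8.20 in the control cows (probe A_73_P087376). In the B12 cows it was 10.32, 10.89, 8.90 and 9.67, in the same order of cows. Again the groups did not overlap, and cow 40 was the lowest. The log2 fold change was 1.69 (standard error 0.38, 95% interval 0.84 to 2.54, adjusted p = 1 from limma), and it was 1.08 to 1.16 on the other 2 probes. ISG15 and HERC6 were the 2 of the 7 genes whose B12 cows lay entirely above the control cows, which 2.37% of all genes did. Two-sided exact permutation tests of the means gave p = 0.0571 for each, where 0.0286 is the smallest p that 4 cows against 3 allow. With Cyber-T, the regularised test used in the study's own methods, both genes passed the threshold. Its adjusted p was 0.00591 for ISG15 and 0.00686 for HERC6. The other 5 did not pass, where 0.0898% of all genes passed. The study's own qPCR did not bear out an effect of B12 on either gene.

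USP18, the protease that removes ISG15 from proteins and dampens interferon receptor signalling, was 8.91, 8.96 and 9.34 in the control cows (probe A_73_P037226). In the B12 cows it was 11.09, 10.36, 8.80 and 9.98. Cows 36, 37 and 52 lay above the control cows, and cow 40 lay below them. The log2 fold change was 0.99 (standard error 0.46, 95% interval -0.03 to 2.01, adjusted p = 1 from limma), and it was 0.65 without cow 36 and 0.46 with slide as a fixed block. Cows 36 and 52 were the only livers on their slides, so the slide-block value rests on B12 cows 37 and 40.

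Among the effectors, MX1, a dynamin-like GTPase that traps viral nucleocapsids, was 11.35, 11.66 and 10.61 in the control cows (probe A_73_P110771). In the B12 cows it was 13.98, 14.11, 10.71 and 13.04. Cows 36, 37 and 52 were above all control cows and cow 40 fell within their range. The log2 fold change was 1.76 (standard error 0.85, 95% interval -0.15 to 3.66, adjusted p = 1 from limma), and the other 2 probes gave 1.26 and 1.67. RSAD2 (viperin), a radical SAM enzyme that makes a chain-terminating nucleotide, was 8.40, 8.57 and 7.91 in control cows and 10.49, 10.62, 8.15 and 9.32 in B12 cows (probe A_73_112930). Its pattern over the cows was that of MX1. The log2 fold change was 1.35 (standard error 0.56, 95% interval 0.11 to 2.59, adjusted p = 1 from limma), 0.44 on the second, dimmer probe and 0.90 as the mean of both.

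MX2, a paralogue of MX1, and OAS2, which makes the 2-5A messenger that activates RNase L, were near the lower end of the scale. The background correction adds an offset whose log2 is 5.64, so differences of dim probes are compressed. MX2 was 6.39 to 6.71 in control cows and 6.40 to 6.94 in B12 cows, with a log2 fold change of 0.04 (95% interval -0.26 to 0.33). OAS2 was 6.33 to 6.51 in control cows and 6.30 to 6.91 in B12 cows, with a log2 fold change of 0.07 (95% interval -0.23 to 0.36). In both genes the single highest value of all 12 liver arrays was that of B12 cow 37, and the remaining B12 cows lay within or just outside the control range. Without cow 37 the log2 fold changes were -0.09 for MX2 and -0.07 for OAS2. OAS2 was well above background on 11 of the 12 liver arrays, and MX2 on all 12.

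The spread between the B12 cows was shared by the genes. For ISG15, HERC6, USP18, MX1 and RSAD2, cows 36 and 37 held the top 2 liver values of all 12 cows, and cow 40 was the lowest of its group. Correlations over the 12 liver arrays of each gene with the mean of the other 6 were 0.93 for ISG15, 0.89 for HERC6, 0.93 for MX1, 0.96 for RSAD2 and 0.90 for USP18. They were 0.38 for MX2 and 0.44 for OAS2. Without the arrays of cows 36 and 37 they were 0.65 to 0.85 for the first 5 genes, -0.36 for MX2 and 0.10 for OAS2. These correlations describe arrays that share treatment groups and carry no test.

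Slide and scan day were compared directly where a slide held control and treated livers. On the slide scanned on the other day, B12 cow 37 exceeded control cow 43 by 3.36 for ISG15, 2.38 for HERC6, 2.45 for MX1, 2.05 for RSAD2 and 1.41 for USP18. On the slide that held B12 cow 40 and control cow 51, the differences were 0.36, 0.69, 0.10, 0.25 and -0.54 for the same genes. The within-slide difference was thus wide for cow 37 and narrow for cow 40, as in the comparison over all slides. With the arrays of the first scan day alone (3 B12 and 2 control cows), the log2 fold changes were 2.17 for ISG15, 1.51 for HERC6, 1.60 for MX1, 1.17 for RSAD2 and 0.83 for USP18, and those of MX2 and OAS2 turned to -0.16 and -0.12.

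Levels in a biopsy also depend on its cells, and fewer cells of a type and less RNA per cell cannot be told apart. The summed level of 12 measured leukocyte genes of a list of 15 was 16.48 to 16.87 (log2) in the control livers and 16.68 to 16.84 in the B12 livers. Of these 12, 11 to 12 were well above background on each liver array, and the B-cell gene MS4A1 was the one near background, on 6 of the 12. Of the 4 genes of the blood list, ALAS2 was well above background on 1 of the 12 liver arrays and HBA, HBB and AHSP on all 12, and the list summed to 13.45 to 13.70 in control and 12.89 to 13.80 in B12 livers. The list of mammary epithelial genes did differ between these livers. All 7 measured genes of that list of 8 had a higher mean in B12 livers, by 0.09 (ELF5) to 2.05 (CSN1S1), with adjusted p of 1 from limma, and among them were the milk protein genes CSN3 (1.68), LALBA (1.77) and CSN1S2 (1.51, unadjusted p under 0.05 in limma). All 7 were well above background on every liver array. KRT18, a keratin that hepatocytes also make, was the brightest of the 7 in the liver and made up 80% to 97.1% of their summed signal, so the sum of the other 6 was taken, a choice made after seeing these values. It was 12.10, 11.27 and 11.80 (log2) in control cows 42, 43 and 51 and 14.12, 13.16, 12.87 and 12.15 in B12 cows 36, 37, 40 and 52. All 4 B12 cows were above the control cows for this sum, cow 52 by the least. LTF was the brightest of these 6 genes, with a mean over the livers of 11.38 against 7.19 to 8.93 for the others. The sum therefore follows LTF more than the other genes. In cow 52, CSN3 (6.58), LALBA (6.61) and CSN1S2 (6.37) were below all control cows. CSN1S1 alone was 7.71, 7.91 and 7.95 in the control cows, 11.73, 11.35, 9.45 and 7.07 in the B12 cows and 10.11 in cow 57 of the B9 group. Cows 36, 37 and 57 were the 3 highest of the 12 cows for CSN1S1, as they were for ISG15, and cow 52 was the lowest. The part of these markers in the differences of the antiviral genes was not tested.

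In the liver of cows receiving B9 alone, 5 of the 7 genes had a higher mean than control (51.9% of all genes did) and 2 a lower one, with log2 fold changes of -0.12 to 0.63 and adjusted p of at least 0.906 in limma. None of the 7 passed the threshold by limma or by Cyber-T, where 0% and 0.0108% of all genes passed. None had an unadjusted p under 0.05, where 1.56% of all genes were higher and 1.63% lower at that level. Cow 57 was the highest cow for most of these genes, and without it 2 of the 7 had a higher mean than control (47.2% of all genes did). ISG15, MX1 and RSAD2 were then lower than control, by differences of means of -0.32, -0.50 and -0.27. ISG15 was 11.98, 11.52 and 14.58 in B9 cows 39, 41 and 57, and MX1 was 11.26, 10.16 and 12.95. Cow 57 was also the highest of its group for USP18 (10.12) and RSAD2 (9.12), and its values were above all control cows for these 4 genes. HERC6 was 8.53, 8.21 and 8.54, so cow 57 was level with cow 39 there and just above the highest control cow. On the slide it shared with control cow 42, cow 57 was higher by 2.98 for ISG15, 1.60 for MX1, 1.21 for USP18 and 0.50 for HERC6. This is one of the 2 liver arrays that stood apart over all probes, and the part of that in these values was not tested.

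In the liver of cows receiving both vitamins, the genes were at or below control. ISG15 was 12.27 and 11.26 in cows 32 and 38, MX1 11.35 and 10.79, and RSAD2 8.39 and 8.01. These values lay within the control range or just below it. HERC6 was 7.45 and 7.53 and USP18 was 8.65 and 8.31, and both cows were below all control cows for these genes and for OAS2. That made 3 of 7 genes entirely below control, where 9.29% of all genes were. The log2 fold changes ran from -0.76 (HERC6, standard error 0.45, 95% interval -1.78 to 0.26) to 0.04 (MX2). HERC6 was -0.36 and -0.24 on its other probes and -0.45 as the mean of all its probes, and OAS2 went from -0.26 to -0.81 on the processed signal of the image software. In the fit on the brightest probes the smallest adjusted p was 0.687 in limma. No gene of the 7 passed the threshold by limma or Cyber-T, where 0% and 0.0503% of all genes passed, and none had an unadjusted p under 0.05, where 3.74% of all genes were higher and 2.16% lower. Of the 7, 1 had a higher mean than control and 6 a lower one, and 56% of all genes were higher. Without cow 32, whose array stood apart, the ISG15 difference went from -0.31 to -0.81, and without cow 38 it was 0.20.

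**Figure D2:**
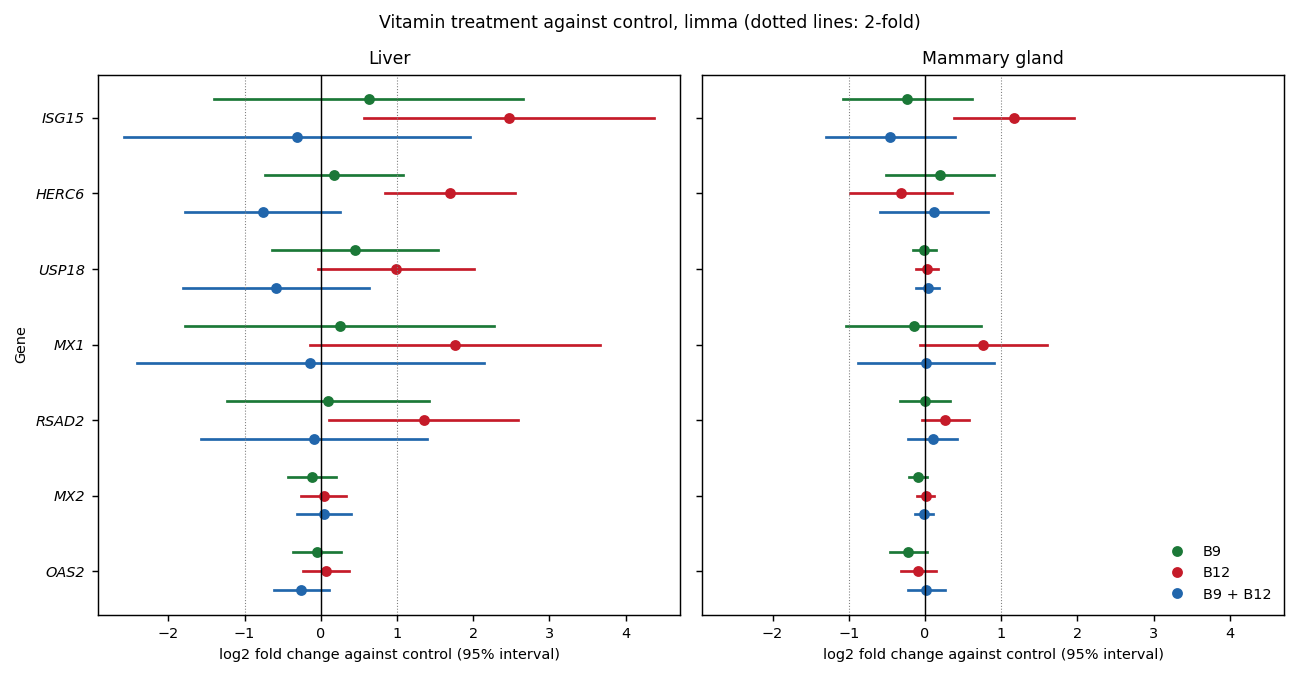
Log2 fold change of each vitamin group against control (horizontal axis) with its 95% interval from limma, for the 7 genes (vertical axis) in liver and mammary gland. In the liver the B12 estimates of ISG15, HERC6, USP18, MX1 and RSAD2 lie between 0.99 and 2.47 and those of B9 + B12 at or below 0, and in the gland only ISG15 with B12 exceeds 2-fold.

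Whether the 2 vitamins together differed from the sum of their separate effects was read from the B9 by B12 interaction. In the liver it was negative for 6 of the 7 genes (it was positive for 53.4% of all genes), with a median of -2.03 against 0.01 over all genes. It was -3.40 for ISG15 (standard error 1.32, 95% interval -6.36 to -0.44), -2.63 for HERC6 (standard error 0.59, 95% interval -3.95 to -1.30, and -1.60 and -1.51 on its other probes) and -2.03 for USP18 (standard error 0.71, 95% interval -3.62 to -0.43). These 3 genes had an unadjusted p under 0.05, as did 1.36% of all genes in the negative direction, and no gene of the 7 passed after adjustment (adjusted p = 1 from limma, 0% of all genes passing). A negative interaction of at least 2-fold was seen in 5 of the 7, against 0.568% of all genes. MX1 and RSAD2 had interactions of -2.14 and -1.54, with intervals that included 0. The MX1 interaction was -1.39 without cow 57 of the B9 group, and with slide as a fixed block those of MX1 and RSAD2 were -3.57 and -2.35. The ISG15 interaction was -2.96 with the arrays of cows 57 and 32 left out together and -5.26 with slide as a fixed block. In the fits with a slide block, livers alone on their slide do not count. These were B9 cows 39 and 41 and B12 cows 36 and 52. The slide-block values thus take B9 from cow 57 alone and B12 from cows 37 and 40.

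Averaged over the other vitamin, B12 against no B12 gave log2 fold changes of -0.07 to 0.77 in the liver, with no gene of the 7 at an unadjusted p under 0.05, where 2.01% of all genes were higher and 0.887% lower. B9 against no B9 gave lower values for all 7 genes (55.7% of all genes were higher), from -0.06 for MX2 to -1.14 for HERC6. HERC6 and ISG15 (-1.07) were at least 2-fold lower, against 0.244% of all genes, though the other probes of HERC6 gave -0.77 and -0.52. HERC6 alone had an unadjusted p under 0.05 in limma, where its adjusted p was 0.491, and 4.7% of all genes were lower at that level. None of the 7 passed the threshold in either comparison, nor did any other gene on the array (0%).

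In the mammary gland, the B12 difference was seen mainly in ISG15 and MX1. ISG15 was 8.21, 8.65 and 8.83 in control cows 42, 43 and 51, and 9.97, 10.49, 8.65 and 9.81 in B12 cows 36, 37, 40 and 52. Cows 36, 37 and 52 were above all control cows, and cow 40 lay within their range, as it did in the liver for MX1. The log2 fold change was 1.17 (standard error 0.36, 95% interval 0.38 to 1.96, unadjusted p = 0.00771, adjusted p = 1 from limma), and 1.06 on the other probe. With slide as a fixed block it was 0.75. It was the 1 gene of 7 at least 2-fold higher, against 0.079% of all genes, and the 1 of 7 higher at an unadjusted p under 0.05, against 1.41%. None of the 7 genes had all B12 cows above all control cows (2.23% of all genes did), and none passed the threshold by limma or Cyber-T, where 0% and 0.0251% of all genes passed. The two-sided exact permutation test gave p = 0.0857.

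**Figure D3:**
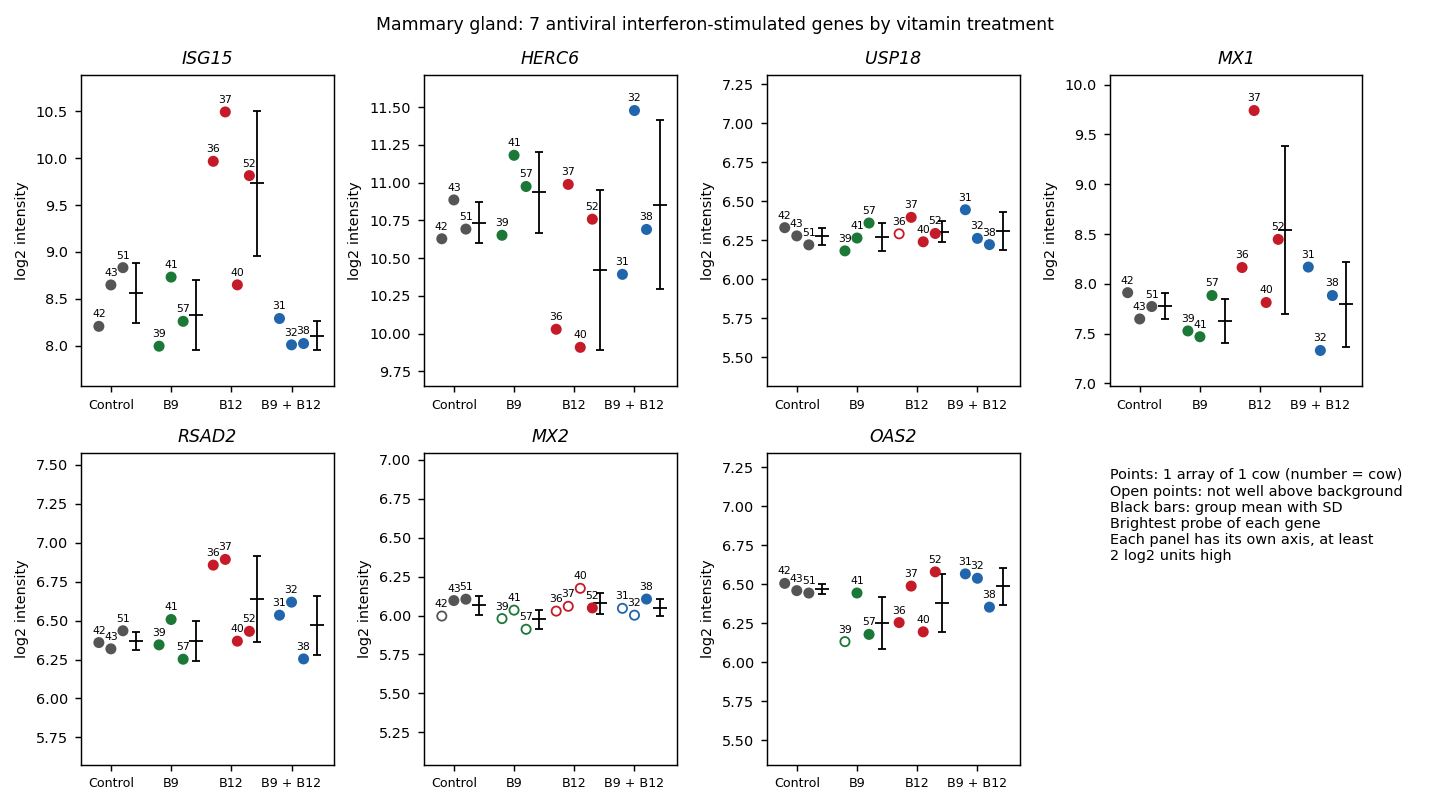
Mammary gland log2 intensity (vertical axes) of the 7 measured genes in each treatment group (horizontal axes), with cows, groups, open points and bars as for the liver. B12 cows 36, 37 and 52 are above the control cows for ISG15 and MX1, HERC6 shows no such order, and 9 of 13 MX2 points are open.

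MX1 was 7.91, 7.65 and 7.77 in the control glands and 8.16, 9.74, 7.81 and 8.45 in the B12 glands. The same 3 cows were above control, with a log2 fold change of 0.76 (95% interval -0.07 to 1.60), which was 0.36 without cow 37 and 0.51 as the mean of its probes. RSAD2 was 6.32 to 6.43 in control and 6.86, 6.89, 6.37 and 6.43 in B12 glands, so cows 36 and 37 stood above the rest and the log2 fold change was 0.27 (95% interval -0.04 to 0.57). It was 0.82 on the processed signal, which has no added offset, and 0.13 with slide as a fixed block. HERC6 did not follow. It was 10.63, 10.89 and 10.69 in control glands and 10.03, 10.99, 9.91 and 10.76 in B12 glands, a log2 fold change of -0.31 (95% interval -0.98 to 0.35) and -0.39 to -0.12 on the other 2 probes. It was -0.18, -0.50 and -0.14 without B12 cows 36, 37 and 40, and -0.53 with slide as a fixed block. USP18, MX2 and OAS2 lay between 5.91 and 6.58 on all 13 mammary arrays, and their B12 estimates were 0.03, 0.01 and -0.09.

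With B9 alone the mammary log2 fold changes ran from -0.23 (ISG15) to 0.20 (HERC6), and with B9 + B12 from -0.46 (ISG15) to 0.12 (HERC6). No gene of the 7 had an unadjusted p under 0.05 in either comparison, where 1.24% of all genes were higher and 1.19% lower with B9 and 0.937% and 0.984% with B9 + B12. None passed by limma, where 0% of all genes passed, or by Cyber-T, where 0.0144% passed with B9 and 0.018% with B9 + B12. Cow 57, with high liver values in the B9 group, had mammary values of 8.26 for ISG15 and 7.88 for MX1, inside the control range for both genes. The mammary B9 by B12 interaction was -1.39 for ISG15 (standard error 0.52, 95% interval -2.55 to -0.23, unadjusted p = 0.0228, adjusted p = 1 from limma), and ISG15 was the 1 gene of 7 below an unadjusted p of 0.05, as were 1.86% of all genes in that direction. Averaged over B12, B9 against no B9 gave -0.93 for ISG15 (unadjusted p = 0.00473, adjusted p = 1 from limma), again the 1 gene of 7, against 1.98% of all genes. B12 averaged over B9 gave -0.20 to 0.47, with no gene of the 7 at an unadjusted p under 0.05, where 0.866% of all genes were higher and 0.715% lower.

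Between the tissues the genes did not go one way. On the scale common to all 25 arrays, 4 of the 7 were higher in the liver past the threshold and HERC6 was higher in the gland, so 5 of 7 passed, against 19.4% of all genes. ISG15 in the liver was 10.49 to 14.98 with a mean of 12.12, and in the gland 8.53 to 11.24 with a mean of 9.37. Averaged over the 4 treatment groups, each with equal weight, the liver-over-gland difference was 2.62 on the log2 scale (6.15-fold, standard error 0.35, adjusted p = 1.4e-06 from limma). It was 2.42 for MX1 (standard error 0.34, adjusted p = 3.5e-06), 2.22 for USP18 (standard error 0.16, adjusted p = 2.27e-10) and 1.43 for RSAD2 (standard error 0.20, adjusted p = 3.2e-06, all from limma). All 12 cows with both tissues had the higher value in the liver for each of these 4 genes. USP18 in the gland was near the floor of the scale, at 6.32 to 6.67, although well above background on 12 of 13 arrays. RSAD2 in the gland was also low, at 6.41 to 7.23.

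HERC6 was 7.11 to 10.15 in the liver and 10.62 to 12.34 in the gland. It was higher in the gland in all 12 cows, with a liver-minus-gland difference of -3.48 (log2, 11.1-fold, standard error 0.19, adjusted p = 1.6e-12 from limma), and its other probes gave -2.48 and -2.49. With the cow as a block over the 12 cows, the HERC6 difference was -3.54 (adjusted p = 3.35e-09 from limma), and the other 4 genes also passed. The size depends on the common scale: with quantiles taken within each tissue the differences were 4.08 for ISG15, 3.74 for MX1, 2.17 for RSAD2 and -2.21 for HERC6. MX2 and OAS2 differed by 0.23 and -0.35 (liver minus gland), under 2-fold. MX2 was well above background on 12 of 12 liver arrays and 4 of 13 mammary arrays. On the processed signal of the image software, without the added offset, these 2 differences were 1.03 and -1.55 and also passed the threshold, as 46.6% of all genes did, and the USP18 difference was 3.75. The OAS2 difference was -0.02 both with quantiles within each tissue and in the authors' processed table, and it did not pass there. With the mean of a gene's probes RSAD2 (0.86) did not pass, where 16.5% of all genes did.

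**Figure D4:**
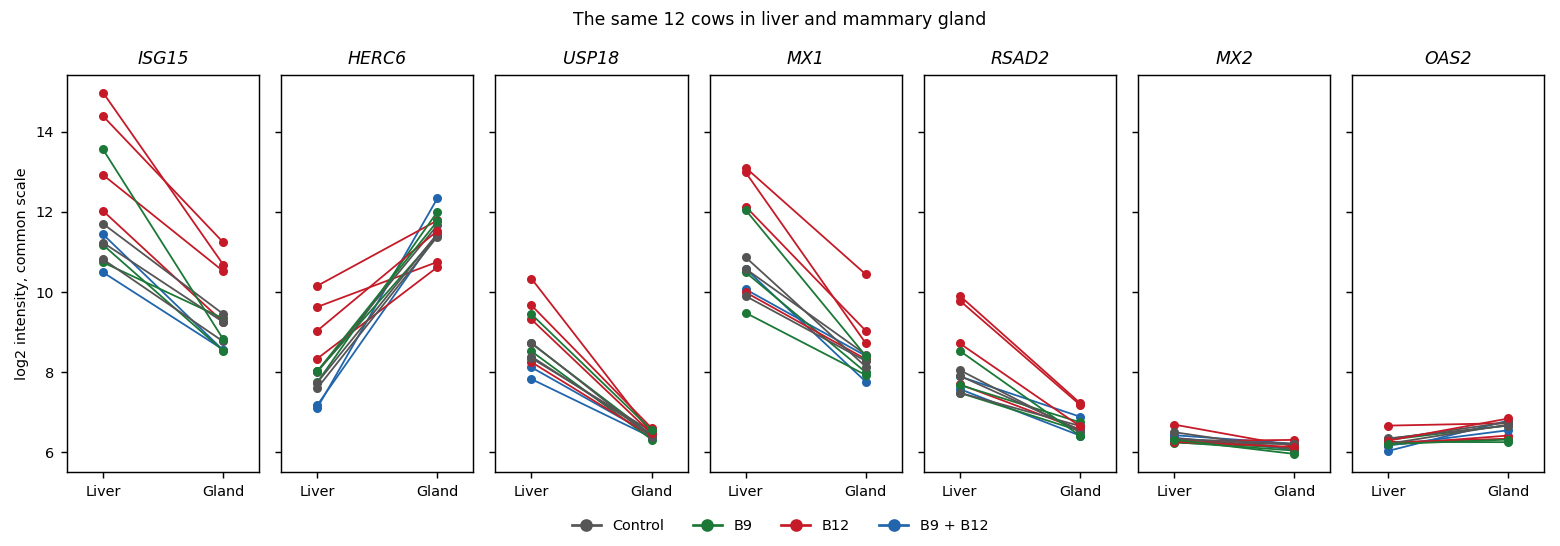
Log2 intensity on the scale common to all arrays (vertical axis) in the liver and the gland (horizontal axis) of the same 12 cows, 1 line per cow, coloured by treatment. ISG15, MX1, USP18 and RSAD2 are higher in the liver of all 12 cows and HERC6 in the gland of all 12, and levels of different genes are not comparable, since their probes differ.

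The gap between the tissues was compared between treatments cow by cow. For HERC6, liver minus gland was -3.79, -3.67 and -3.72 in the control cows 42, 43 and 51, and -1.12, -1.63, -2.28 and -2.50 in B12 cows 36, 37, 40 and 52. It was -3.39 to -4.26 in the B9 cows and -4.28 and -5.23 in the B9 + B12 cows. The 4 B12 cows therefore had the 4 smallest gaps of the 12. The B12 effect in the liver exceeded that in the gland by 1.84 (standard error 0.50, unadjusted p = 0.00149, adjusted p = 1 from limma), and the two-sided exact permutation test gave p = 0.0286, the smallest that this design allows, as 1 of 7 such tests.

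For ISG15 the same difference of B12 effects was 1.06 (standard error 0.92, adjusted p = 1 from limma). Its liver-minus-gland values were 2.05, 1.98 and 2.25 in control cows and 4.29, 3.15, 2.77 and 2.40 in B12 cows, without overlap. ISG15 and HERC6 were 2 of 7 genes whose B12 cows all exceeded the control cows in this gap, against 1.96% of all genes. The widest ISG15 gap was 4.73, in B9 cow 57. No gene of the 7, and 0% of all genes, passed the threshold for a tissue difference of the B12 effect.

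The rest of the interferon pathway was described through a list of 112 genes in 6 role groups, of which 69 were found on the array. With B12 in the liver, 49 of the 69 had a higher mean than control (49.7% of all genes did) and 20 a lower one, the median log2 fold change was 0.18, and 1 gene passed the threshold (0.00359% of all genes passed). That gene was IFI6, an interferon-induced mitochondrial protein, with a B12-minus-control difference of 3.73 (log2, limma standard error 0.31 and adjusted p 0.0158). It was 13.36, 13.07 and 12.97 in control cows 42, 43 and 51 and 17.50, 16.25, 16.92 and 16.81 in B12 cows 36, 37, 40 and 52. IFI27, from the same family, was 14.12, 14.64 and 13.59 in control cows and 17.47, 16.55, 17.12 and 17.09 in B12 cows, a difference of 2.94 (limma standard error 0.51 and adjusted p 1). For IFI6 and IFI27, cow 40 was as high as the rest of its group, whereas for ISG15, HERC6, USP18, MX1 and RSAD2 it was the lowest. B9 cow 57 was at 13.42 for IFI6, close to control, and at 15.24 for IFI27, above control.

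**Figure D5:**
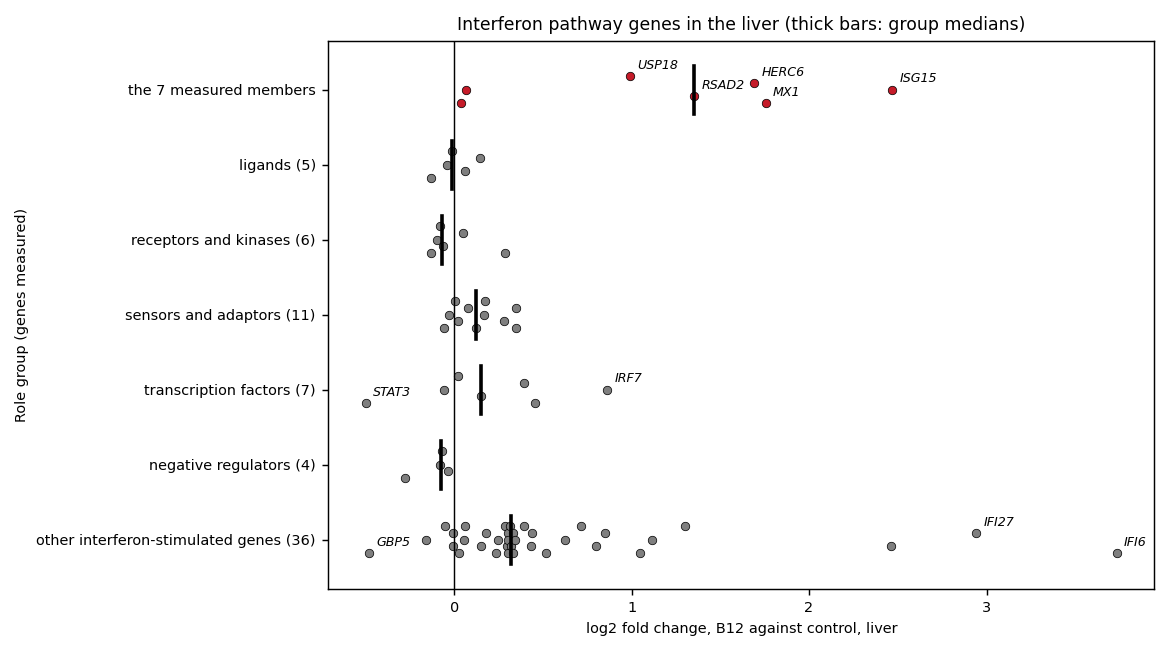
Log2 fold change of B12 against control in the liver (horizontal axis) for the 7 measured antiviral genes and for the 69 further pathway genes by role group (vertical axis), with 1 point per gene and thick bars at the medians. The other interferon-stimulated genes have a median of 0.32, with IFI6 and IFI27 farthest to the right, while ligands, receptors and negative regulators lie around 0.

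By role, the genes were distributed as follows. Among the 36 other interferon-stimulated genes, 31 were higher and 5 lower in B12 livers, with a median of 0.32 and 5 at an unadjusted p under 0.05 upward, where 49.7% of all genes were higher and 1.12% were so at that level. The lowest values were in GBP5 (-0.48), a guanylate-binding protein, and IFI30 (-0.16), a lysosomal thiol reductase. The 5 measured ligands had log2 fold changes of -0.13 to 0.15 and a median of -0.01. Interferon genes are low in unstimulated tissue, and IFNAG was well above background on 0 of 12 liver arrays, IFNAC on 4 and IFNG on 8, while IFNB3 was on all 12. The named ligands had values of -0.13 for IFNB3, -0.04 for IFNAG, 0.06 for IFNAC and 0.15 for IFNG.

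Of the 6 receptors and kinases, 2 were higher and 4 lower. IFNAR2, a chain of the type I receptor, had a log2 fold change of 0.29 (unadjusted p = 0.0488, adjusted p = 1 from limma). IFNLR1, a chain of the type III receptor, had 0.05, the kinase TYK2 -0.10 and IFNAR1, the other type I chain, -0.13. Of the 11 sensors and adaptors, 9 were higher, with values of 0.35 for TLR3, a sensor of double-stranded RNA, and 0.35 for DHX58, a RIG-I-like helicase, at the upper end. STING1 (-0.03) and MYD88 (-0.06), both adaptors, were at the lower end.

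Of the 7 transcription factors, 5 were higher. IRF7, which drives type I interferon genes, differed by 0.86 in log2 (standard error 0.46). IRF5 had -0.06 and STAT3 -0.50. All 4 negative regulators were lower, with -0.28 for PIAS1, -0.08 for CISH, -0.07 for SOCS3 and -0.03 for PTPN6, and none of these genes passed the threshold (adjusted p = 1 from limma).

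Under B9 + B12 in the liver, 28 of the 36 other interferon-stimulated genes were lower than control and 8 higher (56% of all genes were higher), with a median of -0.22 and none past the threshold, where 0% of all genes passed. IFI6 was 13.69 and 12.83 in cows 32 and 38, a log2 fold change of 0.13, and IFI27 was 14.43 and 13.61, a log2 fold change of -0.09. The interaction of the vitamins in the liver was negative for 33 of the 36 genes, with a median of -0.63, 8 at an unadjusted p under 0.05 downward and 1 upward, where 53.4% of all genes were positive and 1.36% were negative at that level. It was -3.41 for IFI6 (standard error 0.49) and -2.86 for IFI27 (standard error 0.80), both with an adjusted p of 1 from limma. In the mammary gland with B12, 28 of the 36 were higher (51.2% of all genes were), with a median of 0.14 and none past the threshold, and IFI6 and IFI27 had log2 fold changes of 0.68 (standard error 0.28) and 0.58 (standard error 0.19).

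The genes whose liver pattern was most like that of the 7 were found by correlating every other gene with their mean over the 12 liver arrays. The nearest with a current symbol were RTP4 (correlation 0.96), a receptor-transporting protein, DTX3L (0.94), a ubiquitin ligase, OAS1Y (0.94), a relative of OAS2, XAF1 (0.94), FZD3 (0.90), IRF7 (0.90), LOC282255 (0.87) and UBA7 (0.87), the activating enzyme for ISG15. Without the 2 farthest arrays these correlations were 0.65 to 0.87. Of these 8, FZD3, a Wnt receptor, and LOC282255 were outside the pathway list. RTP4 shows the shared order of the cows. It was 11.28, 11.73 and 11.77 in control cows, 13.79, 13.63, 11.58 and 12.57 in B12 cows 36, 37, 40 and 52, and 12.13 in B9 cow 57.

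In the gland the nearest were OAS1Y (correlation 0.91 over 13 arrays), IPO4 (0.91), ARR3 (0.87), NPY2R (0.87), LOC781990 (0.86), HERC5 (0.86), OAS1Z (0.86) and LUZP2 (0.83). ARR3, NPY2R, LOC781990 and LUZP2 were well above background on at most 1 of the 13 mammary arrays. Without the 2 arrays farthest from the median of the mean, the correlations were 0.74 for OAS1Y, 0.73 for IPO4, 0.69 for NPY2R, 0.56 for ARR3 and 0.50 for HERC5, and 0.28 for OAS1Z, 0.22 for LUZP2 and 0.19 for LOC781990, so the likeness of the last 3 rests on those arrays. OAS1Y is the one gene in both lists of 8. In the gland it was 9.50, 9.18 and 9.34 in control cows and 10.17, 11.20, 9.28 and 10.17 in B12 cows, so the order of cows 36, 37, 52 and 40 against control was that of ISG15.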

How the data were processed

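RNA from 25 biopsies, 12 of liver and 13 of mammary gland, was hybridised to Agilent bovine arrays in 1 colour. Per the file headers, the deposited scanner files hold linear spot intensities from Agilent Feature Extraction 10.7.3.1, whereas the submitters' processing notes name version 9.1. The authors also deposited a log2 table, background-corrected by normexp and normalized between arrays within each tissue, which served as an alternative.

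Here the median signal and median background intensities were corrected by normexp with an offset of 50 (limma 3.58.1, R 4.3.3), control spots were then removed, and quantiles were normalized within the tissue and, for comparisons between tissues, over all 25 arrays. Outlier spots were left out and spots of a probe averaged on the log2 scale. Gene names came from the array's transcript identifiers, matched to a RefSeq gene table used for names only. A linear model was fitted with limma over all arrays of the tissue, p-values were adjusted by the Benjamini-Hochberg method over 43653 probes, and an adjusted p of at most 0.05 with a change of at least 2-fold was called. Shares of all genes are over 27841 gene names, each on its brightest probe, and shares of genes without overlap leave out those with a missing value. Single values were compared by exact permutation tests over cows. Scripts were tested on simulated data.

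All 7 measured genes are named, with the 2 highest and 2 lowest genes of each role group of the pathway list in B12 livers, IFI6, IFI27 and the 8 genes most like their mean. A result that this rule would name among the transcription factors is not reported here. The genes and lists were chosen with earlier results of these data known. The tissues are paired by cow, since both biopsies came from the same animal. Deviations from the group means correlated between the 2 tissues of a cow by -0.25 to 0.26 (median 0.04, 12 cows). Alternatives covered the signal, background correction, offset, normalization set, filter on dim probes, outlier spots, slide, probes of a gene, samples in the fit, Cyber-T and each array left out.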

Additional observations from a re-analysis of the deposited data

How the results depend on the processing

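Across the alternatives tried, no gene of the 7 passed the threshold in any vitamin comparison except with Cyber-T in B12 livers, where 2 passed. These were ISG15 (adjusted p = 0.00591) and HERC6 (adjusted p = 0.00686), where Cyber-T passed 0.0898% of all genes. When each array was left out in turn, limma gave an adjusted p of 1 throughout for ISG15 and of 0.46 to 1 for HERC6. Over 15 alternatives the liver B12 log2 fold change was 1.88 to 2.53 for ISG15, 1.31 to 1.85 for HERC6, 1.32 to 1.84 for MX1, 0.90 to 1.51 for RSAD2 and 0.46 to 1.09 for USP18. The USP18 value of 0.46 came from slide as a fixed block, which in the liver leaves B12 to cows 37 and 40. When each array was left out it was 2.01 to 3.01, 1.38 to 2.04, 1.37 to 2.51, 1.03 to 1.85 and 0.65 to 1.41 for the same genes. Between the tissues 5 of the 7 passed, against 19.4% of all genes. With the processed signal MX2 (1.03) and OAS2 (-1.55) passed too, as 46.6% of all genes did, with the mean of a gene's probes RSAD2 (0.86) did not, where 16.5% did, and with the cow as a replicate block 5 passed (19.6% of all genes), so that the pairing changed no call. The directions that turned were those of small differences. MX1 with B9 + B12 in the liver was 0.0129 with the processed signal, MX2 was -0.0556 for that comparison and -0.0643 for the interaction with slide as a fixed block, and MX2 in B12 glands was -0.0053 without background correction. Of the alternatives chosen after seeing the data, the arrays of the first scan day alone gave -0.16 for MX2 and -0.12 for OAS2 in B12 livers and 0.0049 for the OAS2 interaction. With each array left out, B12 livers gave -0.0893 to 0.13 for MX2 and -0.0686 to 0.13 for OAS2. B9 + B12 livers gave -0.81 to 0.20 for ISG15, -0.43 to 0.14 for MX1, -0.0302 to 0.13 for MX2 and -0.29 to 0.093 for RSAD2. B12 glands gave -0.0227 to 0.0314 for MX2 and -0.0015 to 0.0562 for USP18. The cause of these changes was not tested. Signal over background limits MX2, OAS2 and, in the gland, USP18 and RSAD2, whose differences are compressed by the offset. The planned search for a promoter motif was not run, as no promoter sequences were at hand.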
